A study of Homo sapiens with 6 samples.

Results

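The long terminal repeats (LTRs) described here are the retroviral LTR entries of the human genome named LTR and a number, without the better known numbers (LTR2, LTR3, LTR5, LTR7, LTR10, LTR12, LTR13, LTR14, LTR17 and LTR22) and without the internal regions, whose names end in -int. They were picked by name alone from a table of repeat counts, which gave 194 of 15641 entries, under 88 different numbers among those tested. The RNA came from the chromatin fraction of H9, an established line of human embryonic stem cells. The naive group holds 3 libraries labelled as naive cells kept in RSeT, a culture medium for the naive state, and the primed group holds 3 libraries labelled as primed, the usual culture state of these cells. The growth protocol in the labels is the same RSeT protocol for all 6 libraries, so the primed state rests on the treatment label alone. The table holds repeats and no genes, and 0 of 6 marker genes of the naive and primed states could be looked up in it, so the labelled states were not checked against marker genes. All 4 retroviral entries looked up as linked to these states were in the table, and with TMM scaling all 4 were higher in the libraries labelled naive. HERVK-int (log2 change 3.62, edgeR adjusted p = 7.88e-05) and LTR5_Hs (1.59, 0.00443), known from naive cells, kept their calls with library size alone (2.91, 1.57e-20, and 0.87, 0.00697). HERVH-int (1.14, edgeR adjusted p = 0.0106) and LTR7 (0.87, 0.0156), known from primed and other pluripotent cells, did not keep theirs (0.42, 0.225, and 0.17, 0.619), and LTR7 also lost its call without primed library 1 (0.95, 0.0649).

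An LTR flanks each end of a retrovirus that has inserted into the genome, and it carries the promoter and the polyadenylation signal of the provirus. Recombination between the flanking LTRs of one provirus removes the internal region and leaves a solo LTR, which is why most LTR copies in the human genome stand alone. Some LTRs are known to act as promoters or enhancers in early embryos and pluripotent stem cells, LTR7 and LTR5_Hs among them. The entries described here are mostly older groups, including class I elements (LTR1, LTR8, LTR9), ERVL elements of class III (LTR16, LTR33, LTR40, LTR66) and very old groups shared by mammals (names ending in _Mam). A value adds up the reads on all copies of an entry, so it has no single position, and it does not tell a transcript that starts in an LTR from one that runs through it.

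Total counts were between 9748202 and 17791046 in the naive libraries, and between 118793 and 8106871 in the primed libraries, where primed library 2 was by far the shallowest. The LTR entries together held 132465, 194012 and 241343 counts across naive libraries 1, 2 and 3, against 96657, 2257 and 138241 counts across the primed ones. In primed library 2 the median entry had 6 counts and 66 of the 193 tested entries had 3 counts or fewer, against a median of 454 counts in the other libraries. Alpha satellite took between 25.3% and 42.9% of counts in naive libraries and between 0.221% and 0.625% in primed libraries, which lowers the share left for every other entry in naive cells. Levels are therefore given as CPM (counts scaled to the depth of the library) with TMM factors, a method that sets the bulk of entries equal between libraries, and the values with library size as the only scaling are given for the entries described as called.

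With TMM scaling, more of these LTRs were higher in naive cells than lower. Of 193 tested entries 29 rose in naive cells, LTR6A alone fell, and 163 did not pass the test (quasi-likelihood test of edgeR, p adjusted after Benjamini and Hochberg over all entries tested, threshold 0.05). The rise reached 15% of the LTR entries, where 4.94% of all 3219 entries tested and 10.4% of the 1265 named repeats (all entries other than simple repeats) were called higher. The background for a fall was 7.77% of all entries and 1.19% of named repeats. The median log2 change was 0.35 for the LTR entries, 0.21 for named repeats and -0.0046 for all entries tested. Above 0 were 166 of the 193 LTR changes, 975 of the 1265 for named repeats and 1599 of the 3219 for all entries tested. The changes were mostly small, with quartiles of 0.13 and 0.53, and those of the entries that rose lay between 0.42 and 1.51. A level per library cannot tell fewer cells carrying an RNA from less RNA per cell.

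The direction of the median depended on the scaling, and the count of calls on the scaling, the entries fitted and single libraries. In the fits without 1 library the LTR median stayed above 0, between 0.25 and 0.45. Scaling by library size alone moved the median of all entries tested to -0.61 and the LTR median to -0.28, and with it 0 entries rose (1 at an unadjusted p under 0.05 by edgeR, and 9 adjusted calls by DESeq2 with its own scaling) and 12 fell. Without primed library 1, 0 of the 30 calls were kept, and over all 3472 entries tested only 8 rose and 7 fell. The changes of the 29 LTR entries stayed between 0.38 and 1.40, with edgeR adjusted p between 0.0877 and 0.309. In that fit 41 LTR entries had an unadjusted edgeR p under 0.05 in the higher direction. The counts of higher calls were 51 without naive library 1, 4 without naive library 2, 10 without naive library 3, 37 without the shallow primed library 2 and 14 without primed library 3. With alpha satellite and ribosomal RNA left out of the fit, 21 LTR entries rose and the median was 0.30. Most of the 3219 entries set equal by TMM scaling were simple repeats, as 1265 were named repeats. With simple repeats left out of the fit, 3 LTR entries rose and 2 fell. The medians were then 0.14 for the LTR entries and -0.0086 for named repeats. The median of the LTR entries exceeded the median of named repeats in all 16 alternative fits, by 0.0881 to 0.185. All 16 reuse the same 6 libraries, and the named repeats include the LTR entries. The 3 other scalings moved both medians almost alike (difference 0.135 to 0.139), so they could not test this difference. The share of LTR entries called higher, however, was above that of named repeats in 8 of these 16 fits and below it in the other 8, so whether the calls exceed the background depended on the setting.

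**Figure D1:**
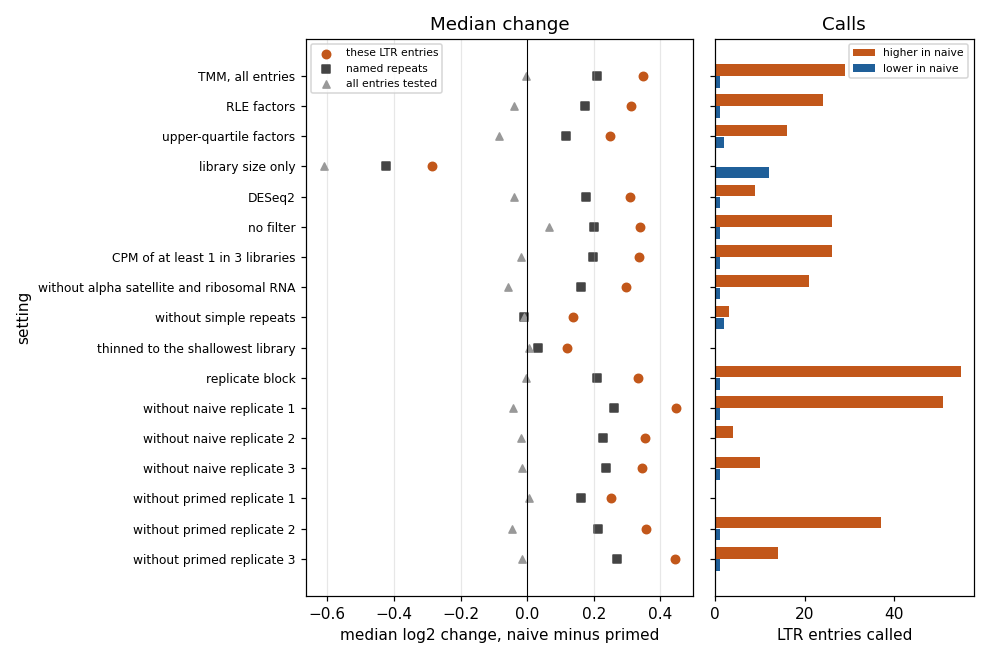
Median log2 change (left; naive minus primed) of the LTR entries, of named repeats and of all entries tested under TMM scaling and 16 alternatives, and the number of LTR entries called in each direction (right; bars, adjusted p under 0.05). The LTR median is 0.35 with TMM scaling and turns to -0.28 with library size only, and no LTR entry is called without primed replicate 1 or with libraries thinned to the shallowest one.

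The order of abundance was nearly the same in both states. Across the 193 entries, the mean CPM in naive and primed libraries had a Spearman rho of 0.973 and a Pearson r of 0.974 on log2 values, a description across entries that share the same 6 libraries and are not replicates. Mean levels ran between 1.23 and 739 CPM, with a median of 43.5 CPM, and the 6 most abundant entries held 19.7% of all counts on these LTRs. Levels are per entry and not per length or per copy, so the order says how many reads an entry collects, not how active a copy is. LTR33, an ERVL element, was the most abundant, with 735, 890 and 891 CPM across naive libraries 1, 2 and 3, against 620, 576 and 722 CPM across the primed ones. LTR8, the LTR of the class I element HUERS-P1, followed with 675 ± 26.6 CPM in naive libraries against 518 ± 47.5 CPM in primed ones (SD, n = 3 each). The groups of both did not overlap, yet neither passed the test, with log2 changes of 0.38 (edgeR adjusted p = 0.0870) for LTR33 and 0.37 (0.0686) for LTR8, which turned to -0.30 for each with library size alone. LTR16C (488, 633 and 685 CPM in naive libraries against 373, 436 and 471 CPM in primed ones; log2 change 0.50, edgeR adjusted p = 0.0577), LTR78 (0.35, 0.102) and LTR79 (0.30, 0.141) did not pass either, and all 3 were below 0 with library size alone (-0.19, -0.33 and -0.36). Among the 6 most abundant only LTR16A was called, with a log2 change of 0.50 (SE 0.14, edgeR adjusted p = 0.0432) that was -0.19 with library size alone. Its call was lost without naive library 2 (0.46, edgeR adjusted p = 0.141), naive library 3 (0.51, 0.0690), primed library 1 (0.39, 0.287), primed library 2 (0.50, 0.0523) or primed library 3 (0.58, 0.0503).

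**Figure D2:**
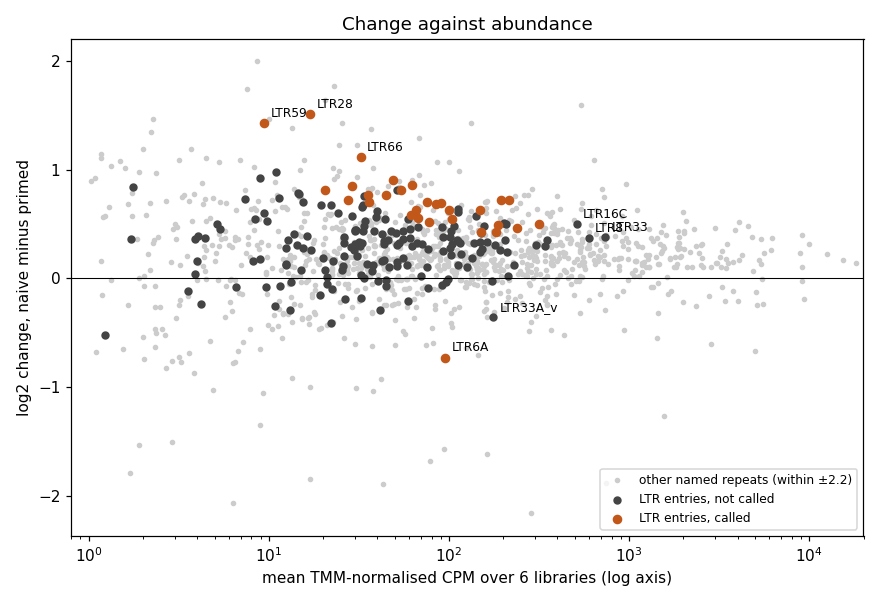
Log2 change (naive minus primed, TMM scaling) against mean CPM over 6 libraries (log axis) for the LTR entries and other named repeats. The LTR points have quartiles of 0.13 and 0.53, LTR28 is highest at 1.51 and LTR6A is the only called entry below 0, at -0.73; with library size alone the points shift down and the LTR median becomes -0.28.

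LTR28 had the largest change of all the LTR entries tested. It stood at 18, 33.9 and 26.1 CPM across naive libraries 1, 2 and 3, against 8.35, 5.59 and 10.2 CPM across the primed ones. All naive libraries were thus above all primed ones, and the fitted change was 2.85-fold (log2 change 1.51, SE 0.29, edgeR adjusted p = 0.0135). The value in primed library 2 rests on 1 count, and without that library the change was 1.5 (edgeR adjusted p = 0.0197). The call was lost with library size alone (0.89, edgeR adjusted p = 0.0526) and without primed library 1 (1.40, 0.104). The other entries of this number did not pass, LTR28B with 0.57 (edgeR adjusted p = 0.180) and LTR28C with 0.32 (0.333). Relative to LTR28C, a comparison within each library that needs no scaling, the log2 ratio of LTR28 counts was -1.05, -0.92 and -0.92 in the naive libraries, against -2.30, -1.87 and -2.05 in primed libraries, with no overlap. This ratio was chosen after the values were seen and carries no test.

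LTR66, the LTR of the ERVL element HERVL66, was at 40.4, 53.9 and 48.7 CPM in naive libraries, against 22.4, 5.59 and 23.8 CPM in primed libraries. The groups did not overlap, and the fitted rise, in which the shallow library weighs less, was 2.17-fold (log2 change 1.12, SE 0.22, edgeR adjusted p = 0.0156). Primed library 2 again held 1 count, and without it the change was 1.06 (edgeR adjusted p = 0.0169). The call was lost without primed library 1 (1.12, edgeR adjusted p = 0.0958) and with library size alone (0.54, 0.167). LTR75 was at 72.7, 96.0 and 81.6 CPM in naive libraries, against 48.1, 28 and 47.7 CPM in primed libraries (log2 change 0.86, SE 0.17, edgeR adjusted p = 0.0156). LTR75B and LTR75_1, which share its number, were not called (log2 0.12, edgeR adjusted p = 0.758, and -0.25, 0.519). LTR91 was at 103, 108 and 103 CPM in naive libraries, against 58.7, 61.5 and 72.4 CPM in primed libraries (log2 change 0.68, SE 0.14, edgeR adjusted p = 0.0166). LTR28, LTR66, LTR75 and LTR91 were the 4 entries called higher in 5 of the 6 fits without 1 library. Like all other calls, theirs were lost without primed library 1. Without it LTR75 gave 0.90 (edgeR adjusted p = 0.0877) and LTR91 gave 0.56 (0.157), and with library size alone they gave 0.26 (0.472) and 0.06 (0.876).

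LTR51 and LTR48 kept their calls in 4 of these 6 fits without 1 library. LTR51 was at 58.2, 84 and 65.2 CPM in naive libraries, against 36.1, 39.2 and 42.6 CPM in primed libraries (log2 change 0.81, SE 0.18, edgeR adjusted p = 0.0221). LTR48 was at 209, 282 and 254 CPM in naive libraries, against 150, 89.5 and 182 CPM in primed libraries (log2 change 0.72, SE 0.20, edgeR adjusted p = 0.0382). In both, the lowest naive library lay above the highest primed one. Without naive library 2 they gave 0.68 (edgeR adjusted p = 0.0668) and 0.66 (0.0780), and without primed library 1 they gave 0.70 (0.174) and 0.70 (0.208). With library size alone LTR51 stood at 0.17 and LTR48 at 0.09.

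LTR59 and LTR29 were called although their groups overlapped. LTR59 was at 8.99, 16.1 and 11.7 CPM in naive libraries, against 3.67, 11.2 and 4.98 CPM in primed libraries (log2 change 1.43, SE 0.36, edgeR adjusted p = 0.0296), and its high primed value is the 2 counts of primed library 2. LTR29 was at 75.6, 107 and 84.4 CPM in naive libraries, against 48.6, 83.9 and 53.5 CPM in primed libraries (log2 change 0.71, SE 0.19, edgeR adjusted p = 0.0386). Here too primed library 2 was the one inside the naive range. Without primed library 2 LTR59 gave 1.51 (edgeR adjusted p = 0.0234) and LTR29 gave 0.81 (0.0210), and without primed library 1 they gave 1.20 (0.221) and 0.57 (0.298). Both calls were also lost without naive library 2 (1.20, edgeR adjusted p = 0.0902, and 0.57, 0.114) and without primed library 3 (1.58, 0.0573, and 0.66, 0.114). LTR59 stood at 0.78 (edgeR adjusted p = 0.157) and LTR29 at 0.011 (0.978) with library size alone. The other 28 called entries had groups that did not overlap. In all, 84 of the 193 LTR entries (43.5%) had groups that did not overlap, 79 of them higher and 5 lower in naive libraries, where this held for 39.3% of named repeats and 30.4% of all entries tested.

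**Figure D3:**
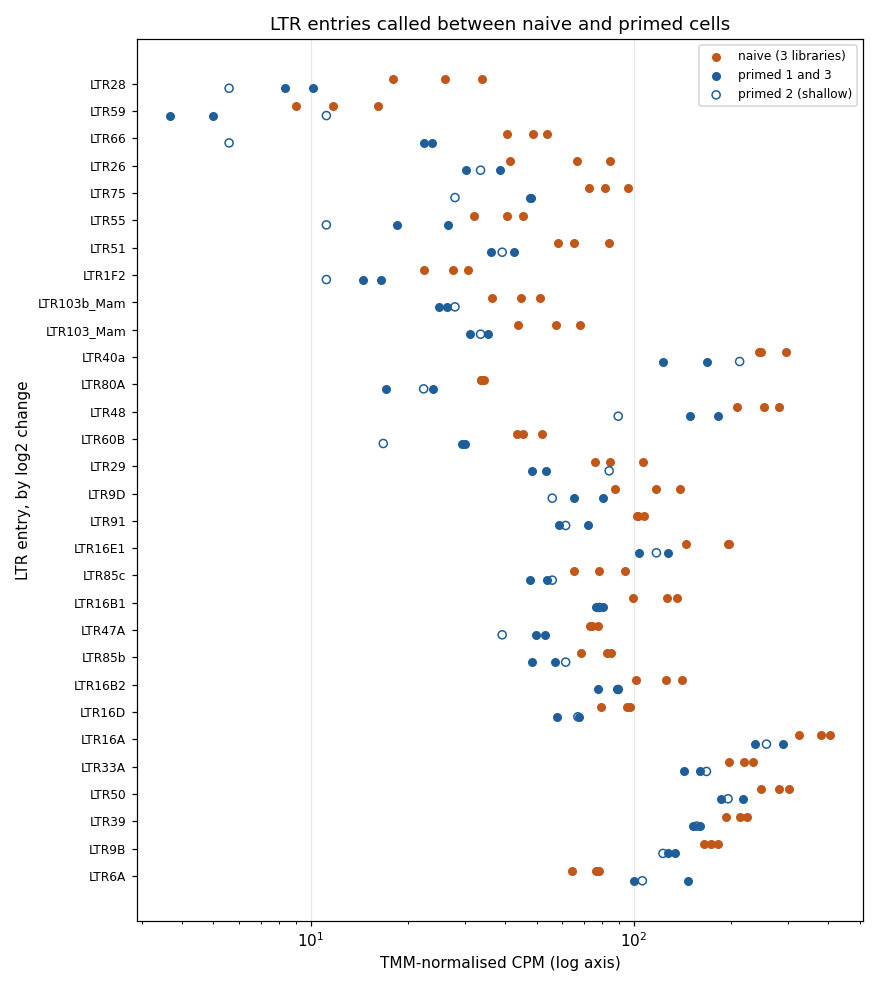
TMM-normalised CPM (log axis) of the 30 called LTR entries in each naive library (orange) and each primed library (blue, with the shallow primed library 2 as open circles), ordered by log2 change. LTR28 is at the top, and LTR6A at the bottom is the only one with its naive libraries (64.6 to 77.8 CPM) below its primed libraries (100 to 147 CPM); with library size alone no entry is called higher.

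LTR6A, an LTR of the HERV-S group (HERVS71), was the only entry that fell. It was at 76.7, 64.6 and 77.8 CPM in naive libraries, against 147, 106 and 100 CPM in primed libraries. All naive libraries lay below all primed ones, and LTR6A was 1.66-fold lower in naive cells (log2 change -0.73, SE 0.17, edgeR adjusted p = 0.0238). The change was below 0 in each of the 16 alternative fits, and it was -1.32 with library size alone (edgeR adjusted p = 1.96e-05). The call was lost without primed library 1 (-0.50, edgeR adjusted p = 0.209), without naive library 2 (-0.61, 0.0832) and with all libraries thinned to the depth of primed library 2 (-0.61, 0.477). Its close relative LTR6B was at 113, 105 and 114 CPM in naive libraries, against 83.1, 44.8 and 86.5 CPM in primed libraries, and did not pass (log2 0.47, edgeR adjusted p = 0.0791). HERVS71-int, their internal region, did not pass either, with 476 ± 79 CPM in naive libraries against 367 ± 160 CPM in primed ones (SD, n = 3 each; log2 0.45, edgeR adjusted p = 0.232).

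The contrast between LTR6A and LTR6B also appears inside each library, where scaling has no part. The log2 ratio of LTR6A to LTR6B counts was -0.56, -0.70 and -0.55 across naive libraries 1, 2 and 3, against 0.82, 1.20 and 0.22 across the primed ones. LTR6B therefore had more counts than LTR6A in each naive library, and fewer in each primed library. The primed values were also more spread (SD 0.496) than the naive ones (SD 0.0826). The highest of them, in the shallow primed library 2, rests on only 19 LTR6A and 8 LTR6B counts. LTR33A and LTR33A_v differed in a like way, with log2 ratios of 0.39, 0.53 and 0.49 in the naive libraries, against -0.63, -0.0916 and -0.24 in primed libraries. LTR33A rose (217 ± 19 CPM in naive, 157 ± 12.7 CPM in primed; SD, n = 3 each; log2 change 0.49, SE 0.13, edgeR adjusted p = 0.0385), a change that turned to -0.19 with library size alone. The LTR33A call was lost without naive library 2 (0.46, edgeR adjusted p = 0.135), naive library 3 (0.51, 0.0640), primed library 1 (0.40, 0.292) or primed library 3 (0.50, 0.0816). LTR33A_v did not pass (156.5 ± 6.23 CPM in naive, 197 ± 22.2 CPM in primed; log2 -0.35, edgeR adjusted p = 0.0964), though its groups did not overlap and it stood at -0.99 (0.00156) with library size alone. Both ratios were chosen after the values were seen and carry no test. Reads from copies this alike can be shared between such entries, and how they were assigned was not given in the sources used here.

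Entries of the same number mostly lay above 0 with TMM scaling. This held for 166 of the 193 tested LTR entries and for 975 of 1265 named repeats. Of 41 numbers with at least 2 tested entries, 39 had a median above 0. Every entry was above 0 in 26 of the 41, and 15 held both signs. Whether entries of one number share a sign more often than this background was not tested. Among the 13 LTR16 entries, an old ERVL group, 5 rose (LTR16A, LTR16B1, LTR16B2, LTR16D and LTR16E1) and 8 were not called. Called higher were 15% of all tested LTR entries, 10.4% of named repeats and 4.94% of all entries tested. The median of the 13 LTR16 entries was 0.51. With library size alone none of the 5 was called, and all of them were below 0, between -0.19 and -0.023. LTR16E1 was at 145, 196 and 196 CPM in naive libraries, against 104, 117 and 127 CPM in primed libraries (log2 change 0.63, SE 0.16, edgeR adjusted p = 0.0302). LTR16B1 was at 99.2, 136 and 126 CPM in naive libraries, against 76.4, 78.3 and 80.1 CPM in primed libraries (log2 change 0.62, SE 0.15, edgeR adjusted p = 0.0280). In both, naive library 1 was the lowest of the naive libraries but above all primed ones. Without primed library 1 they gave 0.51 (edgeR adjusted p = 0.255) and 0.58 (0.194). Both calls were also lost without naive library 2 (0.59, edgeR adjusted p = 0.0791, and 0.56, 0.0887) and naive library 3 (0.59, 0.0574, and 0.62, 0.0518), and that of LTR16B1 without primed library 3 (0.64, 0.0626). At the ends of the group lay LTR16D2 (0.67, edgeR adjusted p = 0.0589) and LTR16D1 (-0.41, 0.212), neither of them called.

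Against 15% of all tested LTR entries and 10.4% of named repeats, the LTR1 group, the LTRs of the class I element HUERS-P2, had 1 of 15 entries that rose. That entry, LTR1F2, was at 22.4, 27.5 and 30.6 CPM in naive libraries, against 14.5, 11.2 and 16.5 CPM in primed libraries (log2 change 0.81, SE 0.22, edgeR adjusted p = 0.0358). It gave 0.22 with library size alone, and its call was lost without naive library 2 (0.83, edgeR adjusted p = 0.0952), naive library 3 (0.74, 0.107), primed library 1 (0.74, 0.227) or primed library 3 (0.92, 0.0556). The group ran between -0.21 for LTR1D1 (edgeR adjusted p = 0.582) and 0.93 for LTR1C (0.0987), with a median of 0.38. LTR8, LTR8A and LTR8B did not pass and lay between 0.34 and 0.50 with TMM scaling, and LTR8A was just outside the threshold (0.50, edgeR adjusted p = 0.0501). With library size alone all 3 were below 0 (-0.30, -0.19 and -0.33). Of 5 LTR33 entries 1 rose, LTR33A.

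A list of ERVL-type LTRs was drawn up from entry names, and whether it holds every ERVL entry was not checked. Of its 56 LTRs 11 rose and 45 were not called, and their median was 0.32. Among the 137 tested LTR entries outside this list 18 rose, 1 fell and the median was 0.35. The share called higher was 15% of all tested LTR entries, 10.4% of named repeats and 4.94% of all entries tested. With library size alone, or without primed library 1, none of the ERVL-type entries was called higher. Outside LTR16, LTR33 and LTR66, the calls in the ERVL list were LTR40a, LTR47A, LTR50 and LTR55. LTR40a was at 244, 296 and 247 CPM in naive libraries, against 123, 213 and 169 CPM in primed libraries (log2 change 0.72, SE 0.18, edgeR adjusted p = 0.0302). It was 0.0019 with library size alone, and its call was lost without naive library 2 (0.65, edgeR adjusted p = 0.0695), primed library 1 (0.49, 0.241) or primed library 3 (0.75, 0.0664). LTR55 was at 32, 40.5 and 45.4 CPM in naive libraries, against 18.5, 11.2 and 26.7 CPM in primed libraries (log2 change 0.85, SE 0.23, edgeR adjusted p = 0.0385). It was 0.26 with library size alone, and its call was lost without naive library 2 (0.86, edgeR adjusted p = 0.0736), naive library 3 (0.76, 0.0877) or primed library 1 (0.66, 0.282). LTR47A (0.58, SE 0.15, edgeR adjusted p = 0.0300) and LTR50 (0.46, SE 0.14, 0.0467) were above 0 with TMM scaling and below it with library size alone (-0.016 and -0.20). Both calls were lost without naive library 2 (0.62, edgeR adjusted p = 0.0717, and 0.49, 0.123), naive library 3 (0.59, 0.0713, and 0.43, 0.108) or primed library 1 (0.55, 0.184, and 0.38, 0.302), and that of LTR50 also without primed library 2 (0.47, 0.0543) or primed library 3 (0.53, 0.0636).

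Of the 12 tested LTRs whose names end in _Mam, 2 rose and the other 10 were not called. Called higher were 15% of all tested LTR entries and 10.4% of named repeats. All 12 were above 0 with TMM scaling, with a median of 0.41, and the 2 that rose kept that sign with library size alone. With TMM scaling 166 of the 193 tested LTR entries and 975 of 1265 named repeats were above 0. LTR103_Mam was at 43.7, 68.2 and 57.4 CPM in naive libraries, against 31.1, 33.6 and 35.4 CPM in primed libraries (log2 change 0.76, SE 0.20, edgeR adjusted p = 0.0302). Its relative LTR103b_Mam was at 36.3, 51.2 and 44.9 CPM in naive libraries, against 25, 28 and 26.4 CPM in primed libraries (log2 change 0.77, SE 0.19, edgeR adjusted p = 0.0280). Primed values of both were below every naive value, though those of primed library 2 rest on few counts. With library size alone they stood at 0.12 and 0.14, and without primed library 1 at 0.68 (edgeR adjusted p = 0.232) and 0.72 (0.186). Both calls were also lost without naive library 2 (0.63, edgeR adjusted p = 0.107, and 0.68, 0.102), naive library 3 (0.78, 0.0528, and 0.79, 0.0531) or primed library 3 (0.84, 0.0576, and 0.79, 0.0600).

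The remaining calls were spread over other numbers. LTR26 was at 41.5, 84.5 and 66.5 CPM in naive libraries, against 30.2, 33.6 and 38.4 CPM in primed libraries (log2 change 0.91, SE 0.25, edgeR adjusted p = 0.0400). Its naive libraries were wide apart. Those of LTR80A were nearly equal, at 34.4, 33.8 and 33.8 CPM in naive libraries, against 17.1, 22.4 and 23.9 CPM in primed libraries (log2 change 0.72, SE 0.20, edgeR adjusted p = 0.0397). LTR9D (114 ± 25.8 CPM in naive, 67.1 ± 12.2 CPM in primed; SD, n = 3 each) and LTR9B (174 ± 9.18 CPM in naive, 128 ± 5.40 CPM in primed), LTRs of the class I element HUERS-P3, rose by 0.69 (SE 0.19) and 0.42 (SE 0.13) on the log2 scale (edgeR adjusted p = 0.0382 and 0.0491). LTR85b (0.55), LTR85c (0.63), LTR60B (0.71) and LTR39 (0.42) also rose, with edgeR adjusted p between 0.0302 and 0.0499. With library size alone LTR26, LTR80A, LTR9D and LTR60B stayed above 0 (0.24, 0.11, 0.05 and 0.14), while LTR9B, LTR85b, LTR85c and LTR39 did not (-0.21, -0.090, -0.027 and -0.23). Without primed library 1 the 8 entries gave between 0.38 and 0.76, with edgeR adjusted p between 0.160 and 0.304. All 8 calls were also lost without naive library 2 (0.45 to 0.80, edgeR adjusted p between 0.0595 and 0.143) and naive library 3 (0.41 to 0.91, 0.0507 to 0.119). Without primed library 3 the calls of LTR26, LTR9B, LTR85b, LTR85c, LTR60B and LTR39 were lost (0.43 to 1.06, edgeR adjusted p between 0.0611 and 0.103), without primed library 2 those of LTR26 (0.91, 0.0543) and LTR9D (0.67, 0.0543), and without naive library 1 that of LTR9B (0.45, 0.0645).

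**Figure D4:**
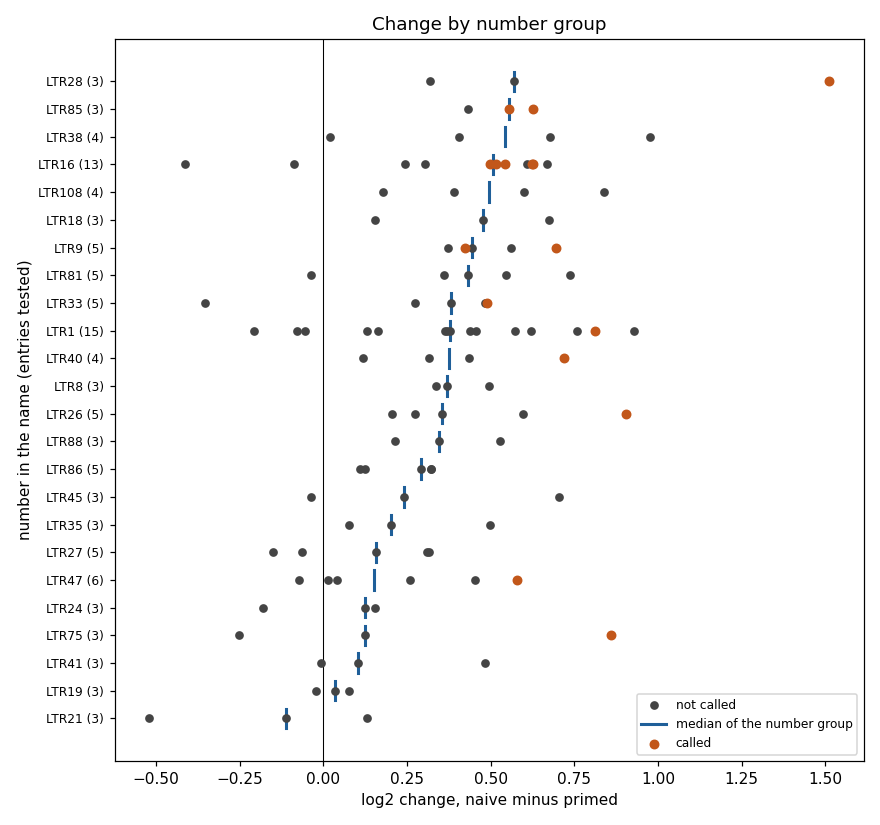
Log2 change (naive minus primed, TMM scaling) of each tested LTR entry, in rows by the number in its name for numbers with at least 3 tested entries; blue bars are row medians and orange points are called entries. LTR16 holds 5 called entries and its median is 0.51, and LTR21 is the row with a median below 0; with library size alone no entry is called higher.

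Some of the larger changes did not pass. Among uncalled entries with a mean of at least 5 CPM, the highest were LTR38A1 (log2 0.98, edgeR adjusted p = 0.0640), LTR1C (0.93, 0.0987), LTR80B (0.81, 0.0874), LTR44 (0.79, 0.0874) and LTR30 (0.78, 0.0581). LTR38A1 and LTR44 had 0 counts in primed library 2, where 3 counts correspond to 25.3 CPM by library size, so that library is too shallow to show their levels. Without it LTR38A1 (0.92, edgeR adjusted p = 0.0481), LTR44 (0.72, 0.0460), LTR80B (0.95, 0.0469) and LTR30 (0.84, 0.0367) passed. None of these 4 passed without primed library 1 (0.64 to 0.93, edgeR adjusted p between 0.296 and 0.442) or with library size alone (0.075 to 0.38). LTR80B was 0.48 without naive library 2 (edgeR adjusted p = 0.291), and passed without naive library 1 (0.94, 0.0260) or naive library 3 (1.01, 0.0370), as LTR38A1 did without naive library 1 (1.15, 0.0269). The lowest uncalled entries were LTR16D1 (-0.41, edgeR adjusted p = 0.212), LTR33A_v (-0.35, 0.0964), LTR43B (-0.29, 0.562), LTR15 (-0.29, 0.377) and LTR75_1 (-0.25, 0.519).

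Whether an LTR and its internal region moved together was asked within each library, as the log2 ratio of their counts, which no scaling factor changes. The 31 pairs joined an LTR number with an internal region of the same number or with its known partner. Of these 31 internal regions 8 rose and LTR43-int fell with TMM scaling, where 25.5% of all 102 internal regions tested were called higher, a like share. All 9 calls were lost without primed library 1. Among them HUERS-P3-int (log2 change 0.70, edgeR adjusted p = 0.0133) and HUERS-P2-int (1.01, 0.0302), the partners of LTR9 and LTR1, rose, and with library size alone LTR43-int kept its call, as the only one of the 9. In 21 pairs the groups overlapped. In 4 pairs every naive ratio was above every primed one, and in 6 every naive ratio was below. Each of these 10 gave an exact two-sided permutation p of 0.1, the smallest that 3 against 3 libraries allow. After Benjamini-Hochberg adjustment over the 31 pairs this is 0.31, so none passed. In primed library 2 several of these ratios rest on few counts. It held 4 LTR15 and 2 HERV15-int counts, 3 LTR30 and 2 HERV30-int counts, and 1 LTR66 and 5 HERVL66-int counts. Its counts of LTR43-int, LTR39-int and LTR52-int were 1, 2 and 2.

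LTR15 differed most from its internal region among the pairs with a lower ratio. The log2 ratio of LTR15 to HERV15-int counts was 0.18, -0.97 and -0.29 in naive libraries, against 1.48, 0.85 and 0.97 in primed libraries, a difference of -1.46. HERV15-int rose (55.3 ± 25.6 CPM in naive, 18.4 ± 6.24 CPM in primed; SD, n = 3 each; log2 change 1.37, SE 0.31, edgeR adjusted p = 0.0236), whereas LTR15 was at 40.1 ± 2.32 CPM in naive libraries against 42.4 ± 19.5 CPM in primed ones and did not pass. The HERV15-int call was lost without primed library 1 (1.39, edgeR adjusted p = 0.157), without primed library 3 (1.41, 0.0528), with library size alone (0.72, 0.0578) and without simple repeats (1.14, 0.0842). LTR4 and HERV3-int, the internal region of a retrovirus known for an intact envelope gene, gave ratios of -2.63, -2.52 and -2.50 in naive libraries, against -2.22, -1.08 and -2.12 in primed libraries. Their difference of -0.74 shrank to -0.38 without primed library 2, in which LTR4 had 13 counts. LTR49, LTR30, LTR52 and LTR9 (against HUERS-P3-int) were the other pairs with lower ratios in naive libraries and no overlap. They differed by -0.46, -0.59, -0.35 (-0.18 with a prior count of 2 in place of 0.5) and -0.19. Against its other listed partner, HUERS-P3b-int, LTR9 differed by -0.18, and those groups overlapped (exact permutation p = 0.8).

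LTR43 lay at the other end. Its log2 ratio to LTR43-int was 2.79, 3.52 and 3.01 in naive libraries, against 1.14, 2.32 and 2.0 in primed libraries, a difference of 1.29. LTR43-int fell (5.73 ± 1.05 CPM in naive, 12.1 ± 6.56 CPM in primed; SD, n = 3 each; log2 change -1.35, SE 0.31, edgeR adjusted p = 0.0236), and it was at -1.88 with library size alone (edgeR adjusted p = 4.28e-05). Its call was lost without naive library 2 (-1.17, edgeR adjusted p = 0.0728) and without primed library 1 (-0.995, 0.214). The 2 LTR43 entries were not called, with a median of 0.02. LTR66 against HERVL66-int gave -0.18, 0.04 and 0.16 in naive libraries, against -0.53, -1.87 and -0.53 in primed libraries, a difference of 0.99 that was 0.54 without primed library 2. LTR39 (0.63) and LTR40 (0.21, against HERVL40-int) were the other pairs with higher ratios in naive libraries and no overlap. For the abundant LTR16 and LTR8 groups, the ratio to HERV16-int and to HUERS-P1-int differed by -0.05 and 0.06 between the states, and the groups overlapped (exact permutation p = 0.9 and 0.6).

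**Figure D5:**
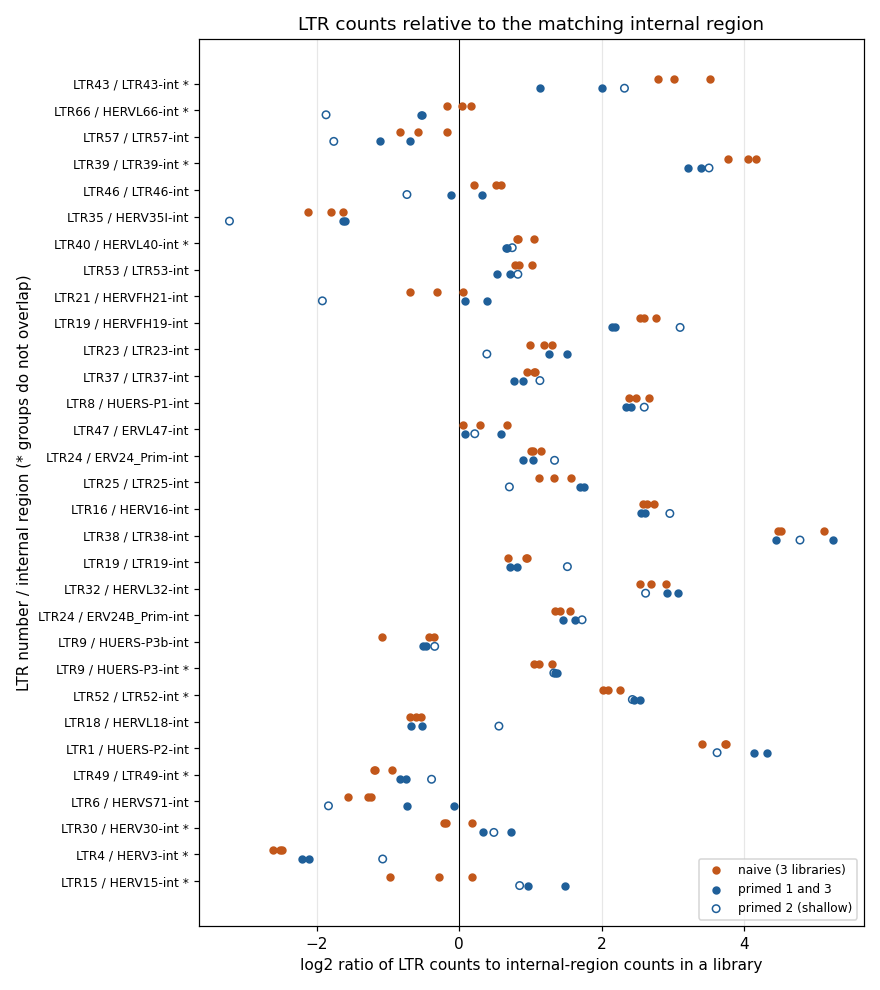
Log2 ratio of LTR counts (all tested entries of a number) to the counts of the matching internal region in each naive library (orange) and primed library (blue, open circles for the shallow primed library 2), with pairs ordered by the naive minus primed difference. The star marks the 10 of 31 pairs whose groups do not overlap, and the differences run between -1.46 for LTR15 and 1.29 for LTR43.

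The share of all counts taken by these LTRs depended on what it was divided by. As a share of all counts it was 1.36%, 1.09% and 1.45% in naive libraries, against 1.34%, 1.90% and 1.71% in primed libraries (1.30% ± 0.185 and 1.65% ± 0.282, SD, n = 3 each; exact permutation p = 0.3). Outside alpha satellite and ribosomal RNA it was 1.98%, 2.12% and 2.21% in naive libraries, against 1.64%, 1.99% and 1.86% in primed libraries, so the direction turned (2.10% ± 0.116 and 1.83% ± 0.179; exact permutation p = 0.2). Among the counts on 543 LTR retroviral entries it was 10.7%, 10.1% and 11.9% in naive libraries, against 12.1%, 13.2% and 12.7% in primed libraries (exact permutation p = 0.1, the smallest possible). In that last comparison every naive library was below every primed one, although the median TMM-scaled change of the same LTRs was above 0. The 543 entries include HERVH-int (mean 31271 CPM in naive libraries, 14217 CPM in primed ones) and HERVK-int (10797 and 877 CPM). Their part in the lower share was not tested. The 95% Wilson interval of the share of all counts in primed library 2 was 1.82% to 1.98%, which covers counting error only.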

How the data were processed

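Reads were processed with Trimmomatic 0.39, STAR 2.7.8a, featureCounts and Subread 2.14.2, per the submitters' processing notes, which give no order or settings. Not given in the sources used here were the repeat annotation, genome build, strand setting and handling of reads with several matches. The deposited values are raw counts per repeat name and library, and the labels' protocols name a directional kit. Columns were matched to samples by title and groups come from the treatment label. Counts of all 15641 entries were fitted with edgeR 4.0.16 in R 4.3.3 (filterByExpr, TMM, quasi-likelihood F-test, naive minus primed, Benjamini-Hochberg adjustment at 0.05 over 3219 entries). Of the 194 LTR entries 193 passed the filter. Standard errors are the log2 change divided by the square root of F. Count ratios used a prior count of 0.5. Nothing in the labels says that libraries came from separate cultures, so the spread behind each p-value is that between these libraries and may be technical. Intervals and floors cover counting error alone. The members, lists and pairs were chosen with earlier results of these data known, and 9 pairs were added after entry names were seen. Named entries are all called ones, the 6 most abundant, the 5 largest uncalled changes in each direction with a mean of at least 5 CPM, and the ends of the LTR1, LTR8, LTR16 and LTR33 groups; LTR6B, LTR28B, LTR28C and LTR75B were named after their values were seen. Alternatives were other scaling factors, DESeq2 1.42.0, other filters and entries, thinning, a replicate block and leaving out each library. Figures used matplotlib 3.10.9.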

Additional observations from a re-analysis of the deposited data

How the results depend on the processing

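Depth was lowest in primed library 2, where 6 of the 30 called entries had 3 counts or fewer. Leaving it out lost 4 of the 30 calls, and leaving out primed library 1 lost all 30. Over all 3472 entries tested without primed library 1, 8 were called higher and 7 lower. Against 29 higher calls and 1 lower, upper-quartile factors gave 16 and 2, library size only 0 and 12, DESeq2 9 higher, removal of simple repeats 3 and 2 (median 0.14), thinning to primed library 2 0 and 0 (3 higher at an unadjusted p under 0.05 by edgeR; 62 entries tested, median 0.12), and the replicate block 55 higher. RLE factors, no filter, a CPM filter and removal of alpha satellite and ribosomal RNA gave 24, 26, 26 and 21. The cause of these shifts was not tested, apart from the fewer counts and entries of the thinned fit. Leaving out 1 library gave 0 to 51 higher and 0 to 1 lower calls, and medians of 0.25 to 0.45. The LTR median became -0.28 with library size only. Same-numbered libraries correlated by 0.146, 0.0867 and 0.0659 in their deviations from the group means, and differently numbered ones by -0.107 to -0.00325. Each library thus correlated best with its own number. The labels state no pairing, so the main fit has no block, and whether the libraries are paired was not tested. The replicate block lost 0 of the 30 calls.

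Higher calls in the lists, with the TMM value first, were as follows. ERVL-type: 11, with 4 (upper-quartile), 0 (library size), 3 (DESeq2), 7 (no filter), 6 (no alpha satellite or ribosomal RNA), 1 (no simple repeats), 0 (thinned), 18 (replicate block) and 0 to 19 without 1 library. LTR16: 5, with 3 (RLE), 1 (upper-quartile), 0 (library size), 1 (DESeq2), 2 (no alpha satellite or ribosomal RNA), 0 (no simple repeats), 0 (thinned), 9 (replicate block) and 0 to 9 without 1 library. LTR1: 1, with 0 (library size, DESeq2, no simple repeats, thinned), 3 (no filter), 5 (replicate block) and 0 to 5 without 1 library. LTR33: 1, with 0 (upper-quartile, library size, DESeq2, no filter, no alpha satellite or ribosomal RNA, no simple repeats, thinned), 3 (replicate block) and 0 to 3 without 1 library. LTR8: 0, with 1 (replicate block) and 0 to 1 without 1 library. Names in _Mam: 2, with 0 (library size, DESeq2, no simple repeats, thinned) and 0 to 2 without 1 library.

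With library size only, LTR9B (-0.21), LTR39 (-0.23), LTR16E1 (-0.036), LTR85c (-0.027), LTR50 (-0.20), LTR16D (-0.12), LTR16A (-0.19), LTR16B2 (-0.12), LTR33A (-0.19), LTR16B1 (-0.023), LTR85b (-0.090), LTR47A (-0.016), LTR33 (-0.30), LTR8 (-0.30), LTR16C (-0.19), LTR78 (-0.33), LTR79 (-0.36), LTR8A (-0.19) and LTR8B (-0.33) reversed. When thinned, LTR39 (-0.27), LTR50 (-0.15) and LTR9D (-0.31) did. The difference in share was -0.352 points of all counts, 0.272 points outside alpha satellite and ribosomal RNA, and -0.504 to -0.226 without 1 library. The count ratios were recomputed for the 10 pairs whose groups did not overlap. Leaving out 1 library cannot reverse the sign of such a pair, so those fits were no check of it. With a prior count of 2 in place of 0.5, 0 of the 10 reversed. The overlapping pairs were not recomputed.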

Other observations

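LTR108c_Mam was the 1 LTR entry left out by the filter on low counts, with 6, 21 and 16 counts across naive libraries 1, 2 and 3, against 3, 0 and 6 counts across the primed ones.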
